A study of Danio rerio with 4 samples.

Results

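The stage change in embryos of ybx1 mutant mothers (labelled Mybx1) was followed from 0 to 6 hours post fertilisation (hpf), by setting 1 RNA library of Mybx1 embryos at 6 hpf against 1 library of Mybx1 embryos at 0 hpf. Of the 31870 gene identifiers in the table, the 14790 whose mean FPKM (fragments scaled to gene length and library size) over these libraries was at least 1 were counted. The genes nearest to this limit were TMEM35A, just outside at a mean of 0.99947 FPKM, and sipa1l3, just inside at 1.0001 FPKM (0.653 at 0 hpf and 1.35 at 6 hpf). A gene with hardly any reads at 0 hpf could pass the limit only through its level at 6 hpf, so such a gene had to rise to be counted.

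The samples were whole zebrafish embryos, wild type (WT) or Mybx1, and both genotypes were sampled at 0 hpf, when the RNA is that of the egg, and at 6 hpf, near the start of gastrulation. Total RNA was sequenced after removal of ribosomal RNA, and each of the 4 groups is a single library. The labels give the Mybx1 genotype as maternal; the nature of the ybx1 allele, the genotype of the fathers, and the number of embryos or clutches behind each library are not given in the sources used here. No agent or treatment is named for any group.

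Ybx1 is a cold shock domain protein that binds mRNA and holds stored transcripts in the cytoplasm. An egg carries a large store of such maternal transcripts, and the embryo lives on them until it degrades them and switches on its own genome, a handover known as the maternal-to-zygotic transition. Transcripts of the embryo's own genome then build the germ layers, the enveloping layer that covers the embryo and the yolk syncytial layer beneath it.

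The depth recovered from the table was 7303656 reads for Mybx1 at 0 hpf and 6042830 reads at 6 hpf, and 7570070 and 6240685 for WT. No group has a replicate, so differences carry no p-value and are differences between these libraries. Rose and fell are used below only of genes at least 2-fold apart on log2(FPKM + 1), and a log2 change is on that scale, which understates the change of low genes. A fold of a single gene is its FPKM ratio, followed in brackets by a 95% interval that covers counting error only. In bulk RNA, fewer cells of a type and less RNA per cell cannot be told apart, and a gain in abundant transcripts lowers the share of all others. Of markers of other tissues, none of 5 matched red blood cell genes was counted. Of 6 matched liver genes only tfa was counted, which rose from 0.197 to 3.09 FPKM (93.0 FPKM in WT at 6 hpf). Of 2 matched muscle genes only ckma was counted, at 1.64 FPKM at 0 hpf and 1.88 at 6 hpf. Of 7 follicle genes only the steroid enzyme gene cyp17a1 was counted (82.5 FPKM at 0 hpf and 74.97 at 6 hpf). The gonadotropin receptor genes fshr and lhcgr, picked after their values were seen, were listed at 0 at 0 hpf. Each of the 7 follicle genes had reads in at least 1 Mybx1 library. Of 7 gastrula markers, krt4 and sox3 were counted and both rose, and 5 stayed under the limit, among them tbxta (0.268 FPKM at 0 hpf and 0.216 at 6 hpf).

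The mutated gene ybx1 itself was present at 11.9 FPKM at 0 hpf and 54.2 FPKM at 6 hpf in Mybx1, a 4.57-fold rise (3.63 to 5.79). In WT it stood at 338.5 FPKM and 2287 FPKM. Both Mybx1 levels lay below both WT levels.

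Most transcripts of Mybx1 embryos kept their level over these 6 hours. Of 14790 genes, 1134 rose (7.67%), 1050 fell (7.1%) and 12606 (85.2%) stayed within 2-fold, with a median log2 change of -0.08 over all of them. Counts of risen and fallen list members below are to be read beside these shares. Over the same genes in WT, 15.7% rose and 42.2% fell, with a median of -0.68. At least 4-fold, 565 genes rose (3.82% of those counted) and 102 fell (0.69%). The limit on mean FPKM favours rises here, since all 370 counted genes listed at 0 at 0 hpf had to rise to be counted. Genes that rose were mostly low at 0 hpf, with a median of 0.322 FPKM there and 5.92 FPKM at 6 hpf. Genes that fell were mid-level maternal transcripts, with a median of 27.3 FPKM at 0 hpf and 9.80 FPKM at 6 hpf, and 19 of them had 0 reads at 6 hpf. Together the risen genes held 1.68% of the FPKM sum of the library at 0 hpf and 7.38% at 6 hpf, and the fallen genes 10.1% and 3.63%. Genes within 2-fold held 87.9% and 88.4%. Many rises rest on little material, as 220 risen genes had under 10 reads over both libraries and 245 were at most 200 bases long. Only 410 rises and 863 falls were of genes with a mean of at least 5 FPKM. Of the risen genes 264 had no symbol and 283 a clone name only.

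**Figure D1:**
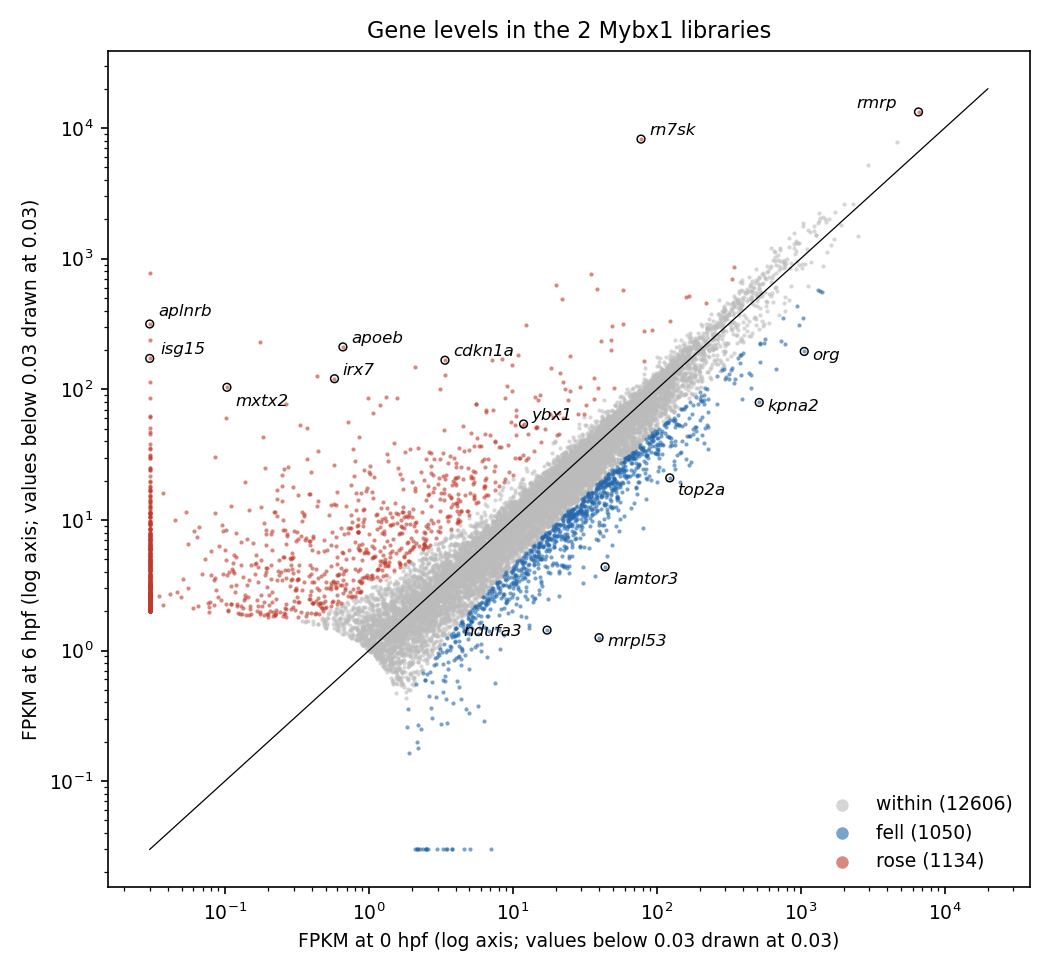
Levels of the 14790 counted genes in the Mybx1 library at 0 hpf (horizontal, FPKM, log axis) and at 6 hpf (vertical, FPKM, log axis), coloured by whether a gene rose, fell or stayed within 2-fold on log2(FPKM + 1). The diagonal marks equal levels and labelled points are examples, not all of them named in the text. The cloud of 12606 genes lies along the diagonal, the column at the left edge holds genes with no or hardly any reads at 0 hpf, and the falls form a narrow band below the cloud.

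Non-coding RNAs of the nucleus and nucleolus made the largest single gains of transcript level. The RNA rn7sk, which holds the elongation factor P-TEFb inactive, went from 77.8 FPKM at 0 hpf to 8238 FPKM at 6 hpf, a 105.9-fold rise (91.5 to 123.2), and in WT from 243.7 to 23621 FPKM. The RNA of RNase MRP, rmrp, which acts in ribosomal RNA processing, went from 6597 to 13292.5 FPKM (2.02-fold, 1.97 to 2.06). The RNA of RNase P, rpph1, which trims transfer RNA precursors, was at 2958 and 5229 FPKM (1.77-fold, 1.71 to 1.83) and stayed within 2-fold. The nuclear long non-coding RNA malat1 rose 5.93-fold (5.42 to 6.503), from 10.5 to 62.15 FPKM. The small Cajal body RNA SCARNA14 rose 71.3-fold (19.3 to 595.7), from 2 reads at 0 hpf to 118 at 6 hpf. Of the 5 counted genes in the list of small RNA genes and their hosts 3 rose (rn7sk, rmrp and malat1) and none fell, and the median log2 change was 1.01. All 5 rose in WT.

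The same direction held for the summed reads of 4 families of short structural RNAs, of which single copies have few reads each. Copies near 0 at 0 hpf were counted only if they rose, so the numbers of risen copies are a description. Of all 380 counted genes of up to 200 bases, 64.5% rose. Reads of genes named as 5S ribosomal RNA came to 5.61 RPM (reads scaled to the total of the library) at 0 hpf and 32.8 at 6 hpf. Of the 673 identifiers of this name 31 were counted, and 25 of these rose. Those of U1 spliceosomal RNA came to 3.83 and 25.3 RPM, with 12 of 15 counted copies risen among 47 identifiers. SNORD box C/D RNAs went from 18.8 to 70 RPM and SNORA box H/ACA RNAs from 146.5 to 285.6 RPM, with 16 of 20 and 10 of 13 counted genes risen. In WT the 4 families reached 25.0, 31.3, 63.5 and 378.6 RPM at 6 hpf, so the Mybx1 levels of the first and the third were above those of WT and the other 2 below. Reads shared between near-identical copies could have been split in unknown ways, which leaves single copies uncertain. Ribosomal RNA was removed before sequencing, and the part of this removal, or of fragment size, in these levels was not tested. Of 211 matched microRNA genes 187 had 0 reads in both Mybx1 libraries, and the 9 that rose of 13 counted had 0 reads at 0 hpf and 1 or 2 reads at 6 hpf, too few for a level.

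Among protein-coding genes the largest rise was that of aplnrb, a receptor for apelin and Toddler that guides mesendoderm cells in gastrulation. It had 0 reads at 0 hpf and reached 316.3 FPKM at 6 hpf, at least 1607-fold above the level of 3 reads, and its WT level at 6 hpf was 61.2 FPKM. The ubiquitin-like gene isg15, known as an interferon response gene, also had 0 reads at 0 hpf and reached 172.3 FPKM (at least 478.6-fold higher), while WT stood at 10.8 FPKM at 6 hpf. The homeobox gene mxtx2, which specifies the yolk syncytial layer, went from 0.103 to 103.6 FPKM (1004-fold, 179.8 to 39718), against 7.25 FPKM in WT at 6 hpf. These genes stood higher in Mybx1 than in WT at 6 hpf.

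The Iroquois gene irx7 reached a like level in both genotypes, going from 0.577 to 120.5 FPKM in Mybx1 (208.9-fold, 89.2 to 644.9) and standing at 119.6 FPKM in WT at 6 hpf. The gene inka1a went from 0.102 to 59.9 FPKM (585-fold, 104.5 to 23153) and stood at 15.7 FPKM in WT. Plekhn1, a pleckstrin homology domain gene, went from 0.372 to 50.1 FPKM (134.8-fold, 52.3 to 496.8), with 48.0 FPKM in WT. The scaffold gene akap12b, which binds protein kinase A, rose 161.4-fold (89.9 to 324.1) to 53.6 FPKM but stood at 844.9 FPKM in WT. Among the 20 largest rises of genes with a mean of at least 5 FPKM, all 20 rose in WT, as did 15.7% of all counted genes. Of these 20 genes 14 stood above the WT level at 6 hpf, and 7 had clone names only. Their choice by a large rise in Mybx1 favours a level above WT. Of all 839 genes that rose in both genotypes, 270 stood higher in Mybx1 at 6 hpf. The largest gain of a long transcript was that of tmem37, a gene similar to calcium channel gamma subunits, from 22.1 to 495.3 FPKM (22.5-fold, 20.5 to 24.6), with 141.1 FPKM in WT at 6 hpf.

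First-wave zygotic genes, those switched on earliest from the embryo's own genome, reached very different shares of their WT levels in Mybx1. Of 29 matched members, counted or not, 23 were past 2-fold upwards and none downwards, with a median log2 change of 2.39, and in WT 28 were, with a median of 5.30. Of the 24 counted members 21 rose, but members near 0 at 0 hpf could be counted only by rising, so this number is a description. The summed level of the list went from 150.7 to 1341 FPKM in Mybx1 and from 87.0 to 8130 FPKM in WT.
At 6 hpf aplnrb, isg15, mxtx2 and her5 stood above their WT levels, as did ndr1 and blf, named after their values were seen. The level of irx7 was like that of WT (120.5 and 119.6 FPKM), and the other risen members stood below. The neural SoxB1 factor sox19a went from 0.0855 to 30.4 FPKM (355.3-fold, 63.3 to 14082) and stood at 328.8 FPKM in WT at 6 hpf. Vox, a homeobox repressor of dorsal fate, went from 0.276 to 25.5 FPKM (92.5-fold, 25.2 to 770.4) and stood at 224.2 FPKM in WT. The small heat shock gene hspb1 went from 1.07 to 66.2 FPKM (61.6-fold, 28.0 to 169.3) and stood at 1854 FPKM in WT. At 6 hpf the Mybx1 levels of sox19a, vox and hspb1 were between 0.0357 and 0.114 of their WT levels.

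Germ layer genes rose in part in Mybx1, and a large part of them stayed near 0. Counts of members that passed the limit on mean FPKM are given as a description, since members near 0 at 0 hpf passed it only by rising. For the germ layer, enveloping layer, yolk syncytial layer, claudin, signalling, immediate early, p53 and innate lists, counts or medians over all matched members stand beside them. Of 27 matched Nodal and mesendoderm genes 16 were counted, of which 11 rose, none fell and the median change was 1.75 (4.60 in WT). Over all 27 matched genes 13 rose, with a median of 0.86. With only genes of a mean of at least 5 FPKM the median was -0.08, over 5 genes of which 2 rose and none fell. The Nodal ligand gene ndr2 went from 0.0904 FPKM (1 read) to 6.34 FPKM (58 reads) and stood at 25.5 FPKM in WT at 6 hpf. The other Nodal ligand gene ndr1, named after its values were seen, went from 0.688 to 4.99 FPKM (7.25-fold, 2.49 to 28.8), with 3.62 FPKM in WT. The chemokine gene cxcl12b, which guides migrating cells, went from 0.0963 to 8.26 FPKM (85.8-fold, 23.3 to 715.5), with 9.69 FPKM in WT. These 3 signals reached 0.249 to 1.38 of the WT level. The T-box factor tbx16, which acts in the mesoderm, went from 0 reads to 3.61 FPKM (at least 43.5-fold) and stood at 107.1 FPKM in WT.

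Of 15 matched dorsal organizer genes 7 were counted, with 4 rises and no fall and a median of 1.79 (4.07 in WT). With a mean of at least 5 FPKM the median became -0.13, over 4 genes of which 1 rose and none fell. Over all 15 matched organizer genes 5 rose, with a median of 0.33. The notochord factor noto went from 0 reads to 3.17 FPKM (at least 7.66-fold; 64.7 FPKM in WT at 6 hpf). The Wnt antagonist gene dkk1b went from 0 reads to 6.36 FPKM (at least 5.24-fold; 25.6 FPKM in WT). The BMP-like ligand gene admp went from 0.147 to 3.47 FPKM (23.6-fold, 6.10 to 201.5; 24.1 FPKM in WT). The retinoic acid degrading enzyme gene cyp26a1 had another pattern, at 92.4 FPKM at 0 hpf and 49.3 FPKM at 6 hpf in Mybx1 and 9.81 and 136.4 FPKM in WT. Of 15 matched ventral and BMP genes 8 were counted, with 4 rises and no fall and a median of 1.07 (4.57 in WT), and over all 15 matched genes 6 rose, with a median of 0.65. Beside vox these were vent, a related repressor, which went from 0 reads to 4.11 FPKM, the ligand gene bmp7a (1.19 to 4.48 FPKM), and the BMP target id1 (0.408 to 2.30 FPKM, against 113.1 FPKM in WT). Of 9 matched neuroectoderm genes 4 were counted and sox19a, sox3 and her5 rose, with a median of 0.12 over the 9. The hairy-related repressor her5, a gene of the midbrain-hindbrain region, went from 0.713 to 8.74 FPKM (12.3-fold, 5.65 to 31.6), above its WT level of 5.72 FPKM at 6 hpf.

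Several patterning genes were near 0 in both Mybx1 libraries and high in WT at 6 hpf, and the following were chosen after their values were seen. The Brachyury gene tbxta stood at 325.2 FPKM in WT at 6 hpf and at 0.216 FPKM in Mybx1. The BMP antagonist gene chrd stood at 177.7 FPKM in WT and at 0.101 FPKM in Mybx1. The ventral homeobox gene eve1 stood at 121.0 FPKM in WT and at 0 reads in both Mybx1 libraries. The neural genes sox2 and foxd5 stood at 65.7 and 47.1 FPKM in WT, and at 0.399 FPKM and 0 reads in Mybx1. None of these genes had a mean of at least 1 FPKM in Mybx1, so none was among the counted members above. The counts and medians over all matched members were made without this limit.

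**Figure D2:**
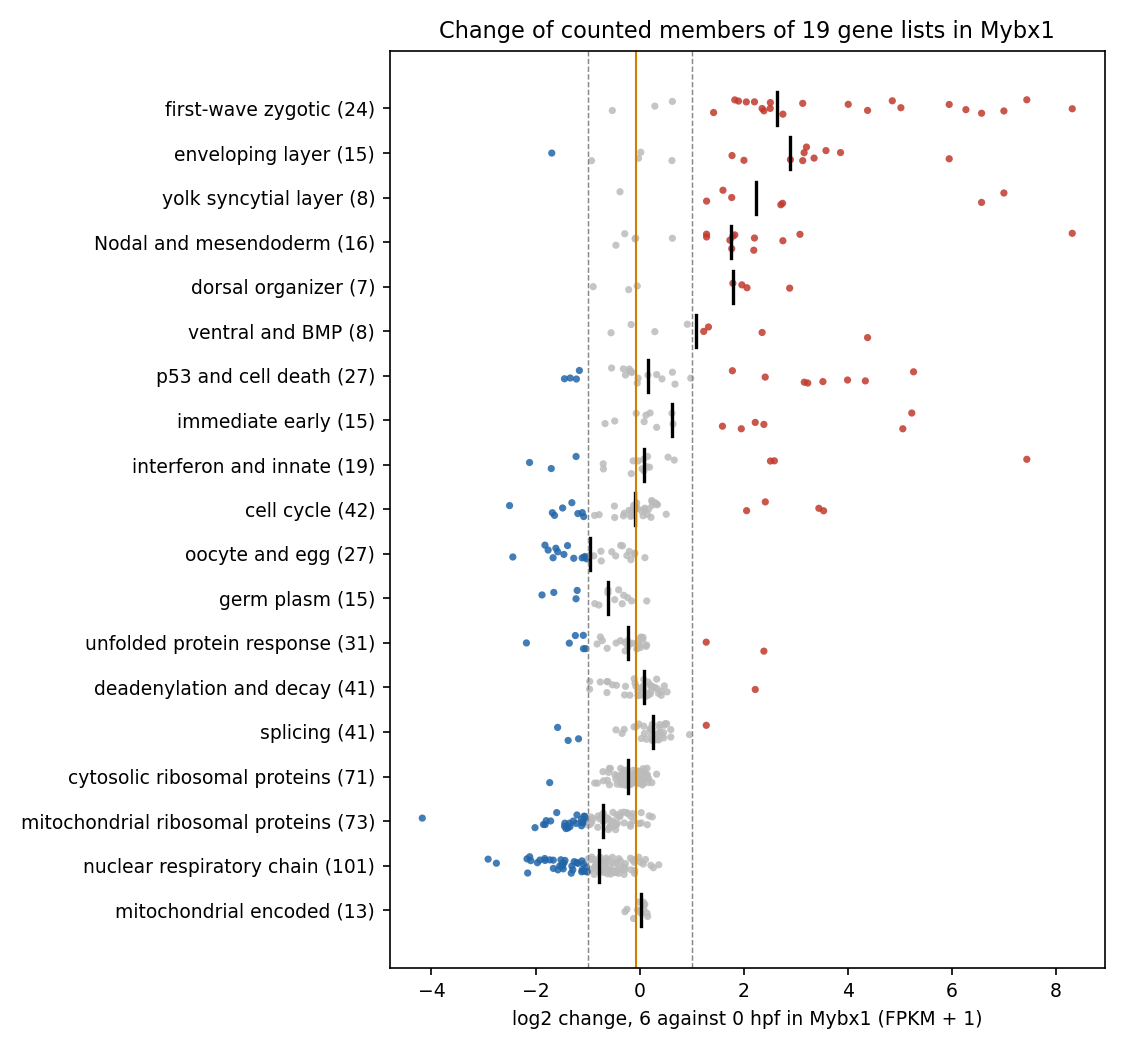
Each point is a counted member of 1 of 19 gene lists, placed by its log2 change from 0 to 6 hpf in Mybx1 (FPKM + 1), with the number of counted members in brackets, red for rises, blue for falls and grey within 2-fold. Black bars are list medians, the orange line the median of all genes (-0.08) and dashed lines 2-fold, and the zygotic lists at the top, whose members near 0 at 0 hpf were counted only if they rose, lie mostly to the right while the mitochondrial ribosomal and respiratory lists extend to the left.

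Of 26 matched enveloping layer genes 11 rose and 1 fell in Mybx1, with a median of 0.70, while 21 rose in WT with a median of 5.98. Of these genes 15 were counted, of which 10 rose and 1 fell. Grhl3, a grainyhead factor that drives epidermal fate, went from 0.230 to 16.8 FPKM (73.1-fold, 19.8 to 610.7), against 82.8 FPKM in WT at 6 hpf. The keratin gene krt4 went from 0.222 to 11.46 FPKM (51.7-fold, 19.8 to 191.8), against 1094 FPKM in WT. The keratin gene krt8 went from 8.77 to 86.3 FPKM (9.83-fold, 7.80 to 12.5), against 1860 FPKM in WT. The keratins thus reached 0.0105 and 0.0464 of their WT levels, and grhl3 0.203. Krt5 stood at 0.696 FPKM at 6 hpf and at 479.0 FPKM in WT. Krt5 and krt8 were named after their values were seen. The adhesion gene cdh1, which codes for E-cadherin and is stored maternally, kept its level at 241.3 and 237.5 FPKM.

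Of 16 matched yolk syncytial layer genes 7 rose and none fell in Mybx1, with a median of 0.35, while 13 rose in WT with a median of 5.11. All 7 were among the 8 counted. Beside apoeb and mxtx2 the risen members included the related gene mxtx1, from 0 reads to 5.70 FPKM (at least 25.8-fold). The nuclear receptor gene hnf4a, a regulator of lipid handling, went from 1.26 to 13.8 FPKM (10.95-fold, 6.52 to 19.7), against 118.1 FPKM in WT. Claudins, the proteins of tight junctions, moved both ways, with 4 of 13 counted members risen and 1 fallen. Over all 35 matched claudins 6 rose and 1 fell. Cldne went from 1 read to 8.82 FPKM (134.2-fold, 23.6 to 5346), cldna from 0 reads to 6.13 FPKM (at least 29.0-fold) and cldnj from 0.186 to 2.36 FPKM. These 3 claudin genes lie next to each other in the gene order of the assembly GRCz12tu. The fallen claudin was the egg gene cldng, from 1367 to 567.3 FPKM (2.41-fold, 2.31 to 2.51), against 17.4 FPKM in WT at 6 hpf.

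In the signalling lists a few ligands, receptors and targets rose. Of 12 counted FGF genes 4 rose and no gene fell (median -0.10), while 9 rose in WT (median 3.88). Over all 18 matched FGF genes 4 rose as well, with a median of 0.02. The receptor gene fgfr4 went from 0 reads to 4.76 FPKM (at least 58.0-fold; 112.4 FPKM in WT), the ligand gene fgf17 from 0.104 to 3.76 FPKM, and the feedback phosphatase gene dusp6 from 0.149 to 2.08 FPKM (215.8 FPKM in WT). Of 10 counted Wnt genes 2 rose and 1 fell, and over all 20 matched genes the numbers were the same. The ligand gene wnt11f2, needed for convergent extension, rose from 1.73 to 12.7 FPKM (7.30-fold, 4.83 to 11.4), and axin2, a target and inhibitor of the pathway, fell from 15.9 to 7.33 FPKM (2.17-fold), whereas axin2 stood at 23.3 and 50.9 FPKM in WT. Of 11 counted Notch and her genes 5 rose and none fell (median 0.50). Over all 20 matched Notch and her genes 6 rose, with a median of 0.19. The Notch modifier lfng went from 3.31 to 49.1 FPKM (14.9-fold, 10.8 to 20.9; 161.8 FPKM in WT), and her12, a target in the segmentation clock, from 0.266 to 6.59 FPKM (24.8-fold, 6.44 to 211.5; 0.778 FPKM in WT).

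Immediate early genes, which answer growth factors and stress, rose in 6 of 15 counted cases (40%, against 7.67% of all genes) and fell in none. The median was 0.62. Over all 25 matched genes, which include those near 0 in both libraries, 7 rose, with a median of 0.19. The AP-1 subunit gene jun went from 0.715 to 56.0 FPKM (78.3-fold, 33.2 to 242.8), against 10.1 FPKM in WT at 6 hpf. Ier5, an early response gene, went from 0.185 to 43.4 FPKM (235.1-fold, 64.6 to 1948), against 126.0 FPKM in WT. The growth arrest gene btg1 went from 1.59 to 11.04 FPKM (6.96-fold; 18.6 FPKM in WT), and cebpb, a leucine zipper factor, from 0.903 to 8.95 FPKM (9.91-fold), against 135.6 FPKM in WT. At 6 hpf jun thus stood above its WT level, and ier5, btg1 and cebpb below theirs. Zinc finger (znf) genes rose about as often as all genes, with 11 of 140 counted genes risen (7.86%, against 7.67%). Fewer fell, with 5 fallen (3.57%, against 7.1%), but their median level at 0 hpf was only 5.73 FPKM. Of all counted genes above 1 and up to 5 FPKM at 0 hpf 3.13% fell, and of those above 5 and up to 10 FPKM 6.68%. In WT 40 of the 140 znf genes rose and 29 fell. Those that rose most had hardly a read at 0 hpf, such as znf1145, from 0 reads to 9.49 FPKM (at least 18.9-fold; 9.18 FPKM in WT), and znf1125, from 0.0606 to 8.21 FPKM (7.02 FPKM in WT). Both were near their WT levels at 6 hpf. Of 171 counted solute carriers 10 rose (5.85%) and 6 fell (3.51%), both below the shares of all genes. Among them were the mitochondrial carrier gene slc25a55a, up from 1.59 to 24.9 FPKM (15.7-fold), and the nucleoside transporter gene slc29a2, down from 59.1 to 10.8 FPKM (5.49-fold).

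Genes of the p53 pathway, which halts the cell cycle or kills cells with damaged DNA, were mostly within 2-fold, and a smaller set rose. Of 27 counted members 8 rose (29.6%, against 7.67% of all genes), 4 fell (14.8%, against 7.1%) and 15 stayed within 2-fold. The median was 0.16, and in WT 7 rose and 12 fell, with a median of -0.84. Over all 30 matched members 8 rose and 4 fell, with a median of 0.08. The cyclin-dependent kinase inhibitor gene cdkn1a (p21) went from 3.38 to 166.9 FPKM and stood at 8.25 FPKM in WT at 6 hpf. The sestrin gene sesn3 went from 0.258 to 24.4 FPKM (94.6-fold, 45.6 to 236.5) but reached 155.2 FPKM in WT. The other members that rose were foxo3b and phlda3 and, named after their values were seen, bbc3, tp53inp1, mdm2 and sesn1. The p53 ubiquitin ligase gene mdm2 went from 58.2 to 313.7 FPKM (5.39-fold, 4.88 to 5.97), against 67.3 and 43.2 FPKM in WT. The autophagy and death gene tp53inp1 went from 1.64 to 22.6 FPKM (13.8-fold, 8.63 to 23.4), against 1.33 and 5.45 FPKM in WT. The sestrin gene sesn1 went from 18.1 to 64.5 FPKM (3.57-fold, 3.17 to 4.04), and in WT it fell from 7.27 to 2.43 FPKM. Of the 8 risen members all but sesn3 stood higher in Mybx1 than in WT at 6 hpf. Picking members by their rise in Mybx1 favours such a level, so this is a description.

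The death initiator gene casp8, at 19.8 and 40.0 FPKM, stayed within 2-fold on log2(FPKM + 1). It was named after its values were seen, as were the 4 members that fell, sesn2, the BH3-only gene bida, the DNA damage sensor gene ddb2 and the pore-forming gene baxb. Sesn2 went from 75.2 to 27.0 FPKM (2.79-fold) and baxb from 15.2 to 6.25 FPKM (2.43-fold). High maternal members such as ccng1, at 896.3 and 1207 FPKM, stayed within 2-fold. The part of cell death or of embryo quality in these values was not tested.

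**Figure D3:**
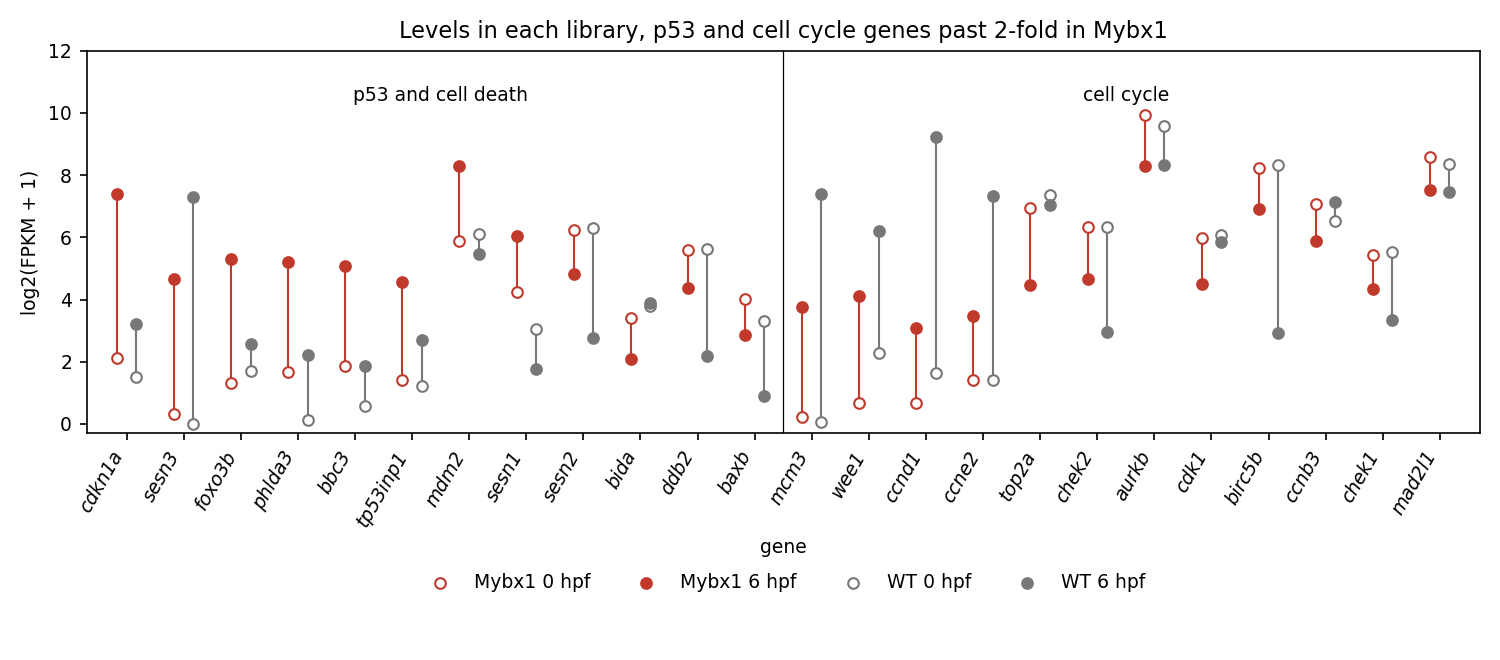
Levels of the p53 and cell cycle list members that rose or fell in Mybx1, on log2(FPKM + 1), with open circles for 0 hpf and filled circles for 6 hpf, red for Mybx1 and grey for WT, 1 library each. In the p53 panel the filled red circle lies above the filled grey one for cdkn1a, foxo3b, phlda3, bbc3, tp53inp1, mdm2 and sesn1, and in the cell cycle panel it lies below it for mcm3, wee1, ccnd1 and ccne2.

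Innate immune genes moved in both directions. Of 19 counted members of the interferon and innate list 3 rose and 3 fell (15.8% each, against 7.67% and 7.1% of all genes), with a median of 0.07. Over all 31 matched members 4 rose and 3 fell, with a median of 0.04. Beside isg15 the risen genes were irf10, an interferon regulatory factor, from 0.760 to 9.58 FPKM (12.6-fold, 5.82 to 32.5), and ifit8, an interferon-induced gene, from 0.385 to 6.90 FPKM (17.9-fold, 7.92 to 50.2). All 3 stood above their WT levels at 6 hpf, which were 1.14 FPKM for irf10 and 0.675 FPKM for ifit8. This is a description, since members picked by their rise in Mybx1 are favoured to stand above WT. The cytokine gene il1b fell from 14.1 to 2.49 FPKM (5.67-fold) and the NF-kappa-B subunit gene nfkb2 from 133.4 to 40.4 FPKM (3.30-fold).

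Of 42 counted cell cycle genes 4 rose (9.52%, against 7.67% of all genes) and 8 fell (19.05%, against 7.1%), with a median of -0.09. All 4 risen genes stayed below WT at 6 hpf. The replication helicase subunit gene mcm3 went from 0.179 to 12.7 FPKM (70.7-fold, 27.2 to 261.7), against 166.2 FPKM in WT at 6 hpf. Wee1, the kinase that restrains cdk1, went from 0.597 to 16.4 FPKM (27.4-fold), against 73.3 FPKM in WT. The G1 cyclin gene ccnd1 went from 0.588 to 7.46 FPKM (12.7-fold, 6.15 to 30.4), against 598.2 FPKM in WT.

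The 8 that fell were top2a, aurkb, cdk1, ccnb3, chek1, chek2, birc5b and mad2l1, all but top2a and aurkb named after their values were seen. The topoisomerase gene top2a, which untangles chromosomes, fell from 123.3 to 21.0 FPKM (5.88-fold, 5.39 to 6.41), against 163.8 and 129.5 FPKM in WT. The Aurora kinase gene aurkb fell from 967.7 to 310.6 FPKM (3.12-fold) and in WT from 770.9 to 318.3 FPKM. The mitotic kinase gene cdk1 fell from 62.3 to 21.7 FPKM (2.88-fold), against 66.2 and 57.0 FPKM in WT. The cyclin gene ccnb3 fell from 133.3 to 57.9 FPKM (2.30-fold), while it stood at 90.4 and 138.7 FPKM in WT. For top2a, cdk1 and ccnb3 the Mybx1 level at 6 hpf was thus the lowest of the 4 libraries. The most abundant cyclin genes kept their level, ccnb1 at 1922 and 1825 FPKM and ccna1 at 1107 and 1186 FPKM, whereas ccna1 stood at 78.0 FPKM in WT at 6 hpf.

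Among the 20 largest falls of genes with a mean of at least 5 FPKM the log2 change lay between -4.18 and -2.43. Of these genes 16 fell in WT as well, as did 42.2% of all counted genes, and 9 stood lower in Mybx1 than in WT at 6 hpf. Their choice by a large fall in Mybx1 favours a level below WT. Mzt1, a part of the gamma-tubulin complex, fell from 31.0 to 3.31 FPKM (9.38-fold, 5.53 to 17.1), against 19.2 FPKM in WT at 6 hpf. The RNA methyltransferase gene trdmt1 fell from 45.2 to 5.25 FPKM (8.61-fold, 6.14 to 12.4). The centriole duplication gene stil fell from 54.6 to 8.28 FPKM (6.60-fold, 5.76 to 7.57), and in WT to 5.91 FPKM. The poly(A) polymerase gene tent2 fell from 83.7 to 14.5 FPKM (5.75-fold, 4.71 to 7.09), and in WT from 141.0 to 42.6 FPKM. The nuclear import adaptor genes kpna2 and kpna7 both fell, kpna7 from 264.1 to 77.2 FPKM (3.42-fold), while kpna5 rose from 0.744 to 2.80 FPKM. Of 51 counted nuclear transport genes 3 fell (5.88%, against 7.1% of all genes) and 1 rose, with a median of 0.09. Loss in FPKM was largest for cldnd, which at 2508 and 1503 FPKM stayed within 2-fold in Mybx1 and stood at 43.7 FPKM in WT at 6 hpf. The beta-tubulin gene tubb4b fell from 1040 to 349.2 FPKM (2.98-fold, 2.84 to 3.12) and stood at 514.2 FPKM in WT.

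Of 27 counted oocyte and egg genes 13 fell (48.15%, against 7.1% of all genes) and none rose, with a median of -0.96. In WT 26 fell, against 42.2% of all genes, with a median of -4.03. The lipase gene lipg fell from 784.5 to 221.4 FPKM (3.54-fold), against 4.50 FPKM in WT at 6 hpf. The genes fbxo5 and fbxo43, inhibitors of the anaphase-promoting complex, both fell, fbxo5 from 342.7 to 111.6 FPKM (3.07-fold) and fbxo43 from 388.0 to 129.5 FPKM. For fbxo5 this was lower than the 237.7 FPKM of WT at 6 hpf. The oocyte histone gene h2af1al, at 1633 and 1267 FPKM, and the linker histone gene h1m, at 1017 and 903.7 FPKM and named after its values were seen, stayed within 2-fold. The list sum went from 13925.8 to 8022.7 FPKM in Mybx1 and from 14622.7 to 715.7 FPKM in WT. Of 15 germ plasm genes, which mark the future germ cells, 4 fell (26.7%) and none rose, with a median of -0.61 (-3.69 in WT). Beside dazl and ca15b these were buc, the organiser of the Balbiani body, from 524.5 to 224.1 FPKM (2.34-fold), and the Piwi gene piwil2, from 26.7 to 11.1 FPKM (2.42-fold).

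The deadenylation and decay list, the machinery that removes maternal mRNA, mostly stayed within 2-fold. Of 41 counted genes 1 rose (btg1) and none fell, with a median of 0.08, while 8 rose and 14 fell in WT. The next largest changes were downward, those of btg4 (783.0 to 401.1 FPKM), zfp36l2 (24.0 to 11.8 FPKM) and parn (457.3 to 270.0 FPKM). As an FPKM ratio zfp36l2 was 2.03-fold lower (1.71 to 2.41), and with a pseudocount of 0.1 the list had 1 fall. Of 24 counted genes of maternal mRNP 1 rose (ybx1) and 1 fell, patl2, from 223.1 to 101.0 FPKM (2.21-fold). The 8 counted maternal activators, pou5f3, nanog and sox19b among them, all stayed within 2-fold, with a median of 0.39.

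Nuclear genes of the mitochondrion fell in 32.9% to 35.6% of cases, against 7.1% of all genes, and those in the mitochondrial genome kept their level. Of 101 counted nuclear respiratory chain genes 36 fell and none rose (median -0.78), and of 73 mitochondrial ribosomal protein genes 24 fell and none rose (median -0.70). In WT 55 and 46 of the same genes fell, with medians of -1.11 and -1.30. The falls were spread over the complexes, with 16 of 37 complex I subunits, 1 of 8 complex III, 5 of 9 complex IV and 7 of 20 ATP synthase genes. The complex I subunit gene ndufs6 fell from 19.1 to 4.69 FPKM (4.09-fold), while it stood at 26.2 and 40.3 FPKM in WT. The complex IV subunit gene cox6c fell from 134.6 to 37.5 FPKM (3.59-fold), and cox14, an assembly factor of this complex, from 48.9 to 6.39 FPKM (7.64-fold, 4.62 to 13.5). The inhibitor of ATP synthase, atp5if1a, fell from 179.6 to 45.3 FPKM (3.97-fold). The ATP synthase subunit genes ATP5F1A and atp5f1b, at 600.8 and 535.8 FPKM and at 606.2 and 320.6 FPKM, stayed within 2-fold. Mrpl54, of the large mitochondrial ribosomal subunit, fell from 47.8 to 12.6 FPKM (3.81-fold) and stood at 26.1 and 29.1 FPKM in WT. The 13 genes of the mitochondrial genome changed by -0.28 to 0.15, with MT-CO1 at 761.9 and 847.2 FPKM.

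The share of genes that fell in Mybx1 differed with the length of the gene, as recovered from the steps of its FPKM values, and was highest at 500 to 750 bases. Among genes with at least 10 FPKM at 0 hpf, 22.0% of those of 500 to 750 bases fell, 9.47% of those of 1000 to 1500 bases and 4.18% of those over 4000 bases. It was lower again for shorter genes, at 12.65% for 200 to 500 bases and 10.3% for up to 200 bases. In WT the shares were 47.9% at 500 to 750 bases, 56.8% at 1000 to 1500 bases and 56.1% at 2000 to 3000 bases, where the Mybx1 share was 7.12%. Genes of the mitochondrial lists are short, and values at matched length stand beside their counts. At 300 to 1000 bases 32 of 68 respiratory chain genes (47.1%) and 21 of 40 mitochondrial ribosomal protein genes (52.5%) fell, against 292 of all 1653 genes (17.7%). At 1000 to 4000 bases the counts were 2 of 21 and 3 of 29, against 489 of 5980 (8.18%). Of other lists at 300 to 1000 bases, cytosolic ribosomal protein genes fell in 1 of 68 cases (1.47%). Splicing genes fell in 3 of 16 cases (18.75%) and proteasome genes in 1 of 16 (6.25%). RNA integrity and fragment size could not be read from the table, and their part in these values was not tested.

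**Figure D4:**
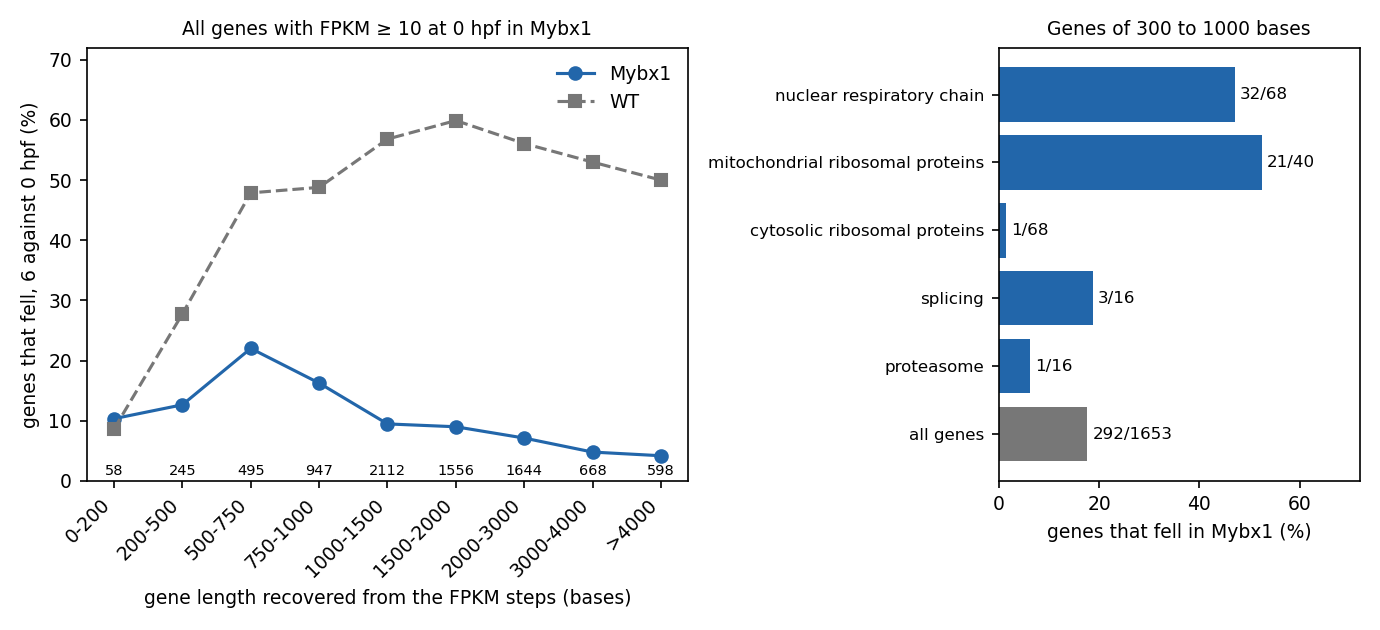
Left, percent of genes that fell from 0 to 6 hpf by gene length in bases, among genes with at least 10 FPKM at 0 hpf in Mybx1, for Mybx1 (circles) and WT (squares), with the number of genes above the axis; right, percent of the members of 5 lists and of all genes of 300 to 1000 bases that fell in Mybx1, with counts. The Mybx1 line is highest at 500 to 750 bases (22.0%), lower for shorter genes and declines to 4.18% over 4000 bases, and the bars of the mitochondrial lists stand at 47.1% and 52.5% against 17.7% for all genes.

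Other housekeeping machinery showed few changes. None of 71 cytosolic ribosomal protein genes rose and 1 fell, rplp2, an acidic stalk protein, from 207.4 to 61.9 FPKM (3.35-fold), with a median of -0.22, whereas 49 of them rose in WT. Of 56 translation factor genes 1 rose and 1 fell, and of 38 proteasome genes 2 fell, psma1 from 85.8 to 31.4 FPKM and psmb6 from 59.3 to 27.9 FPKM. Of 41 splicing genes 1 rose (2.44%, against 7.67% of all genes) and 3 fell (7.32%, near the 7.1% of all genes), while 17 rose in WT. The 3 that fell code for Sm ring proteins of the spliceosome, snrpf (68.5 to 22.3 FPKM, 3.07-fold), snrpg (72.3 to 27.3 FPKM, 2.65-fold) and snrpd2 (88.0 to 38.4 FPKM, 2.29-fold). In WT their levels at 6 hpf were 93.5, 150.2 and 154.0 FPKM. The Sm protein gene snrpb, at 701.5 and 976.9 FPKM in Mybx1, stayed within 2-fold. The splicing factor gene srsf5a rose from 15.6 to 39.3 FPKM (2.52-fold; 299.0 FPKM in WT at 6 hpf).

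In the unfolded protein response, 2 of 31 counted genes rose (6.45%, against 7.67% of all genes) and 6 fell (19.35%, against 7.1%), with a median of -0.23. In WT 1 of the same genes rose and 18 fell, with a median of -1.58. The response's transcription factor gene xbp1 fell from 213.4 to 83.0 FPKM (2.57-fold) and the kinase inhibitor gene dnajc3a from 8.14 to 1.02 FPKM (7.96-fold). The chaperone gene hspa5 stayed within 2-fold at 554.2 and 313.9 FPKM. In WT xbp1 stood at 261.1 and 205.9 FPKM, dnajc3a at 33.7 and 10.6 FPKM, and hspa5 at 896.2 and 177.2 FPKM. Of 13 counted heat shock genes hspb1 rose, and hspe1 and hsp70.1 fell. Hspe1, the mitochondrial co-chaperonin gene, fell from 97.9 to 32.4 FPKM (3.02-fold), against 62.0 and 194.5 FPKM in WT. Of 22 counted histone genes 2 rose and 1 fell. The linker histone gene h1l1 rose from 93.4 to 284.1 FPKM (3.04-fold), against 1477 FPKM in WT. The abundant variant histone gene h2ax, at 895.0 and 1573 FPKM, was among the 10 largest gains and stayed within 2-fold.

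Set against WT, the changes of Mybx1 embryos were mostly in the WT direction and fewer. Of all genes counted in Mybx1, 15.7% rose and 42.2% fell in WT, and the shares below are to be read beside these. Of the 1134 risen genes 839 (74.0%) rose in WT, 278 were within 2-fold and 17 fell, and the 839 genes are 36.2% of the 2318 genes counted in Mybx1 that rose in WT. This base leaves out genes silent in Mybx1, and over the 15031 genes with a mean of at least 1 FPKM in the WT pair 3637 rose. Of the 1050 fallen genes 777 (74.0%) fell in WT, 240 were within 2-fold and 33 rose, and the 777 genes are 12.5% of the 6236 genes counted in Mybx1 that fell in WT. Of the 839 genes that rose in both, 270 stood higher in Mybx1 at 6 hpf. Of the 777 that fell in both, 102 fell further in Mybx1. The libraries of the 2 genotypes are separate samples, but with 1 of each a genotype and a library cannot be told apart, and the differences were not tested.

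**Figure D5:**
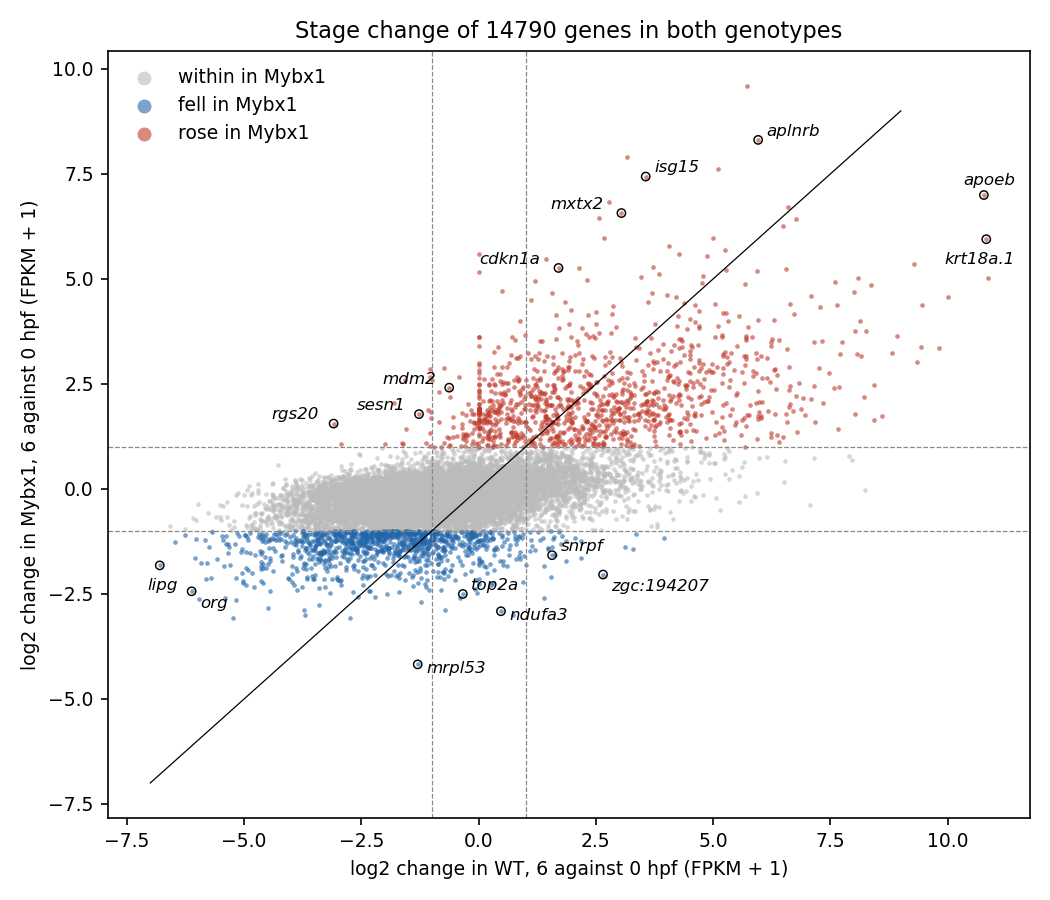
Log2 change from 0 to 6 hpf in WT (horizontal) and in Mybx1 (vertical), both on FPKM + 1, for the 14790 genes counted in Mybx1, coloured by the call in Mybx1. Dashed lines mark 2-fold and the solid line equal change; most points lie in a flat band within 2-fold in Mybx1 across the whole WT range, aplnrb, isg15 and mxtx2 lie above the line of equal change, and rgs20 and zgc:194207 moved in opposite directions in the genotypes.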

How the data were processed

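RNA levels of 4 zebrafish libraries, WT and Mybx1 embryos at 0 and 6 hpf with 1 library each, were taken from the deposited FPKM table. Per the submitters' processing notes, reads were processed with HTSeq 0.6.1, TopHat2 2.0.12 and Bowtie2 2.2.3 on the build GRCz10; the FPKM formula, annotation, strand setting and treatment of multiply mapped reads are not given in the sources used here. Overlapping, antisense and near-identical genes are uncertain for this reason. The deposited FPKM values were compared as log2(FPKM + 1). Calls needed a mean of at least 1 FPKM in the compared pair and a 2-fold difference. FPKM values are whole multiples of 1 read's worth, which gave library totals, gene lengths and the smallest whole read numbers that fit; these cover 88.8% to 93.3% of the totals, so counting intervals (exact conditional binomial, 95%) are if anything too wide. They cover counting error only, as no molecular identifiers are given. A gene at 0 reads was set at the level of 3 reads per library. No replicates exist, so no test was run; the recovery and calls were tested on simulated data.

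Genes were named by rule: the 20 largest rises and falls with a mean of at least 5 FPKM, the 10 largest gains and losses in FPKM, up to 4 members of each list by change and 2 by level, the genes moving oppositely in WT, and ybx1, pou5f3, nanog and sox19b. Others are said to be chosen after their values were seen, among them identifiers without a symbol and genes in runs of neighbours. Some list members are not reported here. The comparison, its members and the lists were chosen with earlier results of these data known, and the ribosomal, translation and respiratory lists were refined after the table was read. Symbols (81.9% of identifiers) were spelled as in RefSeq's GRCz12tu table, and capital symbols are human-form names kept as given. Python 3.11.15, numpy 2.4.6, scipy 1.17.1, pandas 2.3.3 and matplotlib 3.10.9 were used. Alternatives were TPM, median-ratio scaling, other pseudocounts, filters and a 4-fold threshold.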

Additional observations from a re-analysis of the deposited data

Results flagged for a closer look

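Genes of the named rule that moved past 2-fold in opposite directions in the genotypes are given here as log2 changes; each genotype is 1 library per time, and the difference between genotypes was not tested. Of genes that rose in Mybx1 and fell in WT, rgs20, a regulator of G protein signalling, changed by 1.56 (7.44 to 23.8 FPKM) and in WT by -3.09 (8.90 to 0.161 FPKM). The sestrin gene sesn1 changed by 1.78 and in WT by -1.27. The gene zgc:103755 changed by 1.69 and in WT by -1.02. The gene si:ch211-241b2.5 changed by 1.03 and in WT by -1.03.

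The other direction was more frequent among these genes. The gene zgc:194207 changed by -2.04 (15.1 to 2.92 FPKM) and in WT by 2.65 (0.875 to 10.8 FPKM). The secreted factor gene ndnf changed by -1.38 and in WT by 3.12, zgc:56585 by -1.08 and 3.35, and zgc:163030 by -1.64 and 2.19. The NADPH oxidase subunit gene cyba changed by -1.23 and in WT by 2.19, and the quinone reductase gene nqo1 by -1.17 and 2.05. The mitochondrial protein gene chchd2 changed by -1.82 and in WT by 1.39, and the co-chaperonin gene hspe1 by -1.57 and 1.63. The Sm protein genes snrpf and snrpg changed by -1.58 and -1.38, and in WT by 1.57 and 1.56.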

How the results depend on the processing

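No paired analysis was possible because each group is 1 library and the labels give no replicate numbers; no library could be left out either. The counts of 1134 rises and 1050 falls became 565 and 102 at 4-fold and 502 and 550 with a pseudocount of 5. With a mean of at least 5 FPKM, 410 genes rose, 336 rose in both genotypes and 8 rose in Mybx1 and fell in WT. The number that rose in Mybx1 and fell in WT (17) and the number that fell and rose in WT (33) became 8 and 59 with median-ratio scaling and 54 and 81 with a pseudocount of 0.1. Median-ratio scaling was done within each genotype, so the WT changes, with a median of -0.68 before it, were rescaled as well. The shares of genes that rose or fell in WT were not counted under this scaling. The cause was not tested. The only list medians that reversed did so with a mean of at least 5 FPKM. They were those of the Nodal and mesendoderm list (-0.077, over 5 genes) and the dorsal organizer list (-0.129, over 4 genes). None of these genes fell. The interferon and innate median, not past 2-fold, became -0.13 under the same limit. Of 241 list medians under the alternatives 232 kept their side of 2-fold, the interferon and innate median, which changed sign, among them. So did 1048 of 1092 values of named genes, and 39 of the other 44 were with a pseudocount of 5. The direction of named genes was checked only for those past 2-fold in the main setting, and none of these reversed. Median-ratio scaling moved the median of all genes in Mybx1 from -0.08 to -0.05. With gene length over 200 bases 889 genes rose and 1026 fell, and with at least 10 recovered reads, 914 and 1027; both were added after seeing the data. Depth limits the 220 rises and 23 falls with under 10 reads over both libraries.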

Other observations

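Some of the highest rises were of identifiers with no symbol. An identifier of 81 bases, ENSDARG00000088395, went from 0 reads to 776.4 FPKM in Mybx1 (380 reads, at least 153.1-fold) and stood at 51.4 FPKM in WT at 6 hpf. A further one of 81 bases, ENSDARG00000090983, went from 0 reads to 237.0 FPKM (116 reads) and stood at 7.91 FPKM in WT. Neighbours in the gene order of GRCz12tu shared a direction in places. Of the 467 risen genes that could be placed there 66 (14.1%) had a risen neighbour, against 9.19% of all 9951 placed genes, and of 819 fallen genes 164 had a fallen one (15.7% of all placed genes did). Risen runs were cldnj, cldne and cldna, and zgc:171775, krt8 and krt18a.1. Among the fallen runs were si:dkeyp-98a7.4, si:dkeyp-98a7.7, si:dkeyp-98a7.5 and si:dkeyp-98a7.8. Genes next to each other with near-identical copies share reads, so these counts are descriptions only. The methylation enzyme gene dnmt1, at 544.5 and 307.0 FPKM, stayed within 2-fold in Mybx1 and stood at 43.7 FPKM in WT at 6 hpf. Of 5 counted hox genes none rose and 1 fell. Of 13 counted epiboly and adhesion genes 2 rose, has2, a hyaluronan synthase gene, from 2.43 to 20.4 FPKM (8.37-fold), and snai2, a repressor of cadherins, from 6.54 to 20.9 FPKM (3.19-fold).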
